A study of Drosophila melanogaster with 3 samples.

Results

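The subject is the promoter peaks of gooseberry-neuro (Gsb-n) that lie where genes on opposite strands start next to each other. Gsb-n belongs to the Pax family of developmental regulators, which bind DNA through a paired domain and, in this protein, also a homeodomain. Chromatin immunoprecipitation and sequencing was done with an antibody against green fluorescent protein (GFP) on Drosophila melanogaster embryos aged 4 to 14 hours, from a transgenic line with a stable C-terminal GFP fusion to gsb-n. The 3 samples are biological replicates of this 1 group, with chromatin from whole embryos, so binding in any 1 cell type cannot be read from them, and no control sample was analysed here. Nothing in the labels says how the animals were pooled or whether replicates came from separate collections, so the spread between replicates may be partly technical.

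Members were taken from the list of peaks that passed the authors' irreproducible discovery rate (IDR) threshold, a measure of agreement between replicates. A peak was counted when its summit lay within 500 bp of transcription starts of at least 2 protein-coding genes on opposite strands, in the Ensembl annotation on dm6 coordinates. The rule found 614 peaks, 10.7% of the IDR list, beside 1417 other promoter peaks and 3715 peaks away from promoters. The 614 make up 30.2% of the 2031 IDR peaks within 500 bp of any protein-coding start; the other promoter peaks are the rest of these. Members carried 1217 distinct genes: 575 members had 2 genes, 35 had 3, 2 had 4, 1 had 5 and 1 had 10. Peak signal is in the authors' units, and these are not the same from list to list, so replicates are compared by rank. The top list of a replicate is as many of its highest peaks as the IDR list holds. No read counts are in the lists, so depth is unknown and intervals on shares cover counting error only.

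In a divergent, or head-to-head, pair the genes point away from each other and share the short stretch between their starts. Flies have many such pairs, often of broadly expressed genes whose promoters carry elements for the factors DREF and M1BP. Insulator proteins such as BEAF-32 and Chromator are also found there, and the shared stretch is often depleted of nucleosomes. Developmental control genes more often stand alone with long regulatory regions.

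The stretches below run from start to start on the plus strand of dm6, read from the RefSeq copy of that assembly. The first 5 are among the strongest members outside arm R of chromosome 2 that have 2 genes and a summit between starts less than 300 bp apart, and show what the highest peaks contain. The last 2 are the strongest such members with a DREF site and with an M1BP element, and show those elements in place. The minus-strand gene is named first and starts at the first base, and the plus-strand gene starts at the last base. Capitals mark matches on either strand to TATCGATA (DREF site), GGTCACACT (M1BP element), CAGCTG (E-box), CANCNCTA (Ohler motif 7) and TAATTA (homeodomain core).
Art3/mRpS10: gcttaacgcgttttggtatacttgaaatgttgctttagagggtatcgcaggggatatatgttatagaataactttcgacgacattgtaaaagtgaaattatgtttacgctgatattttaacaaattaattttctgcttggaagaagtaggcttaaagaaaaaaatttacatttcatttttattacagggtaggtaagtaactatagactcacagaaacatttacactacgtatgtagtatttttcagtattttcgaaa
Tcs5/CHMP2B: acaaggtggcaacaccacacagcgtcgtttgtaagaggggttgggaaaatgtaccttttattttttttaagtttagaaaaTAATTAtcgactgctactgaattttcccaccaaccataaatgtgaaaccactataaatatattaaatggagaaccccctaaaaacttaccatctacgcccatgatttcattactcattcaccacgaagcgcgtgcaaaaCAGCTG
CG13390/CG17294: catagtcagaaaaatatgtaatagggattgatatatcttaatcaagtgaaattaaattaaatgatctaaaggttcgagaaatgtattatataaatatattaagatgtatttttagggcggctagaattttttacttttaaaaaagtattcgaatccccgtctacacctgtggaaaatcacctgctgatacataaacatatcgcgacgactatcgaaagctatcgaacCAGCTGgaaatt
CG11309/CG7632: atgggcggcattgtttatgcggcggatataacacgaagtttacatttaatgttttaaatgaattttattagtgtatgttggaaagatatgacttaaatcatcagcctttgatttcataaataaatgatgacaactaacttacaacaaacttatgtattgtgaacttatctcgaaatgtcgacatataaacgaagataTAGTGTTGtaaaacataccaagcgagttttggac
Lon/PIG-F: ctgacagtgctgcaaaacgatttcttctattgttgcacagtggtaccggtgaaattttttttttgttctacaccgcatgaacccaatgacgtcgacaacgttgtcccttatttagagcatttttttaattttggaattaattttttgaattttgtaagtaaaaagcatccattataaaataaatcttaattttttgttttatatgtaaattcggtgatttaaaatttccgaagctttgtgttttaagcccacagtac
fws/Lamtor3: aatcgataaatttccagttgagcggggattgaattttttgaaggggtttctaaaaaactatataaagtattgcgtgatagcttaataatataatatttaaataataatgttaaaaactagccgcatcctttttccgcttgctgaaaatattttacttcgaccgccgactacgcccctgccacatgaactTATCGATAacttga
Top3beta/wuho: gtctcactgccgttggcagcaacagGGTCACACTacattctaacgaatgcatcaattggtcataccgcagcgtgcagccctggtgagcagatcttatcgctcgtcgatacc
Art3/mRpS10 is chr3R:15229408-15229665 with its summit at base 136. Tcs5/CHMP2B is chr3L:5139395-5139619 (summit at base 91), CG13390/CG17294 is chr2L:8376797-8377035 (base 83), and CG11309/CG7632 is chr3L:21304467-21304697 (base 93). Lon/PIG-F is chr3L:19612199-19612455 (base 142). Fws/Lamtor3 is chr2L:17481029-17481231 (base 114), and Top3beta/wuho is chrX:6287990-6288100 (base 12). The strongest, Art3/mRpS10, and Lon/PIG-F held none of the marked letters. TAATTA lay in 1 of the 7 stretches, Tcs5/CHMP2B, within 100 bp of the summit.

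Nearly all members were divergent in the strict sense. In 599 of 614 (97.6%) the nearest minus-strand start lay to the left of the nearest plus-strand start, and in 15 the 5′ ends overlapped, by 26 to 632 bp (median 138). Of the head-to-head members, 495 (82.6%) had their summit between the starts, and 104 had it outside. The separation of the starts had a median of 290 bp, with quartiles of 220 and 386.5 bp. The narrowest was 1 bp, between Atg6, an autophagy gene, and Pisd. The widest was 730 bp, between CG13043 and CG13063. Summits sat near the middle: their median distance from the midpoint was 54.5 bp, and 284 (47.4%) were within 50 bp of it. The nearer start was 104 bp away and the farther 200 bp (medians). The rule uses these distances, so they are a description. Summits were nearer the minus-strand start in 305 members and nearer the plus-strand start in 293.

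**Figure D1:**
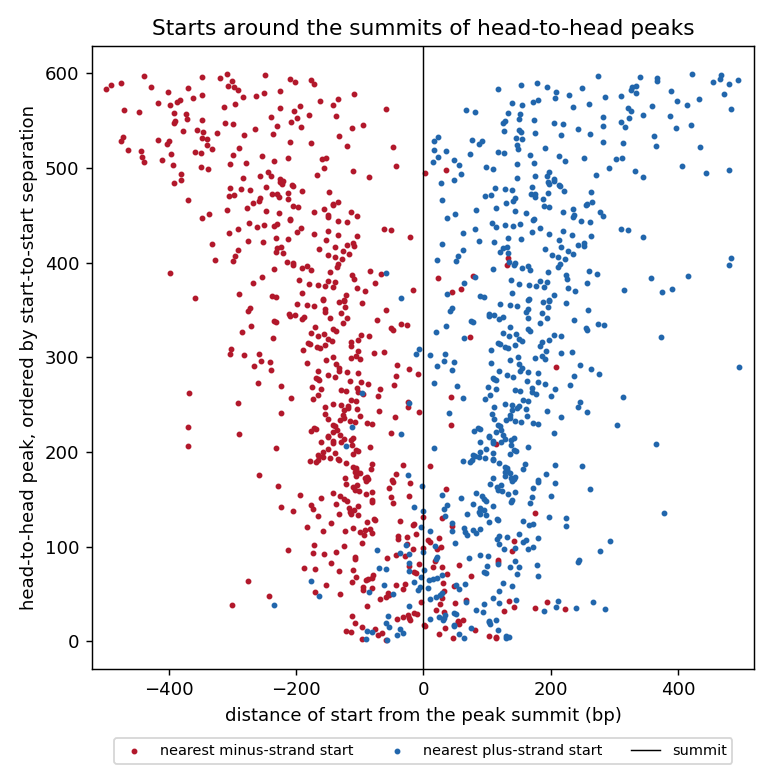
Each row is 1 of the 599 head-to-head members, ordered by start-to-start separation from 1 bp at the bottom to 730 bp at the top; points give the distance in bp of the nearest minus-strand (red) and plus-strand (blue) start from the summit (line at 0). The starts flank the summit in 495 members, and those with the summit outside lie mostly among the narrow pairs at the bottom.

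The share of summits between the starts is partly set by the rule: both starts must lie within 500 bp of the summit, so the room for a summit outside them shrinks as they move apart and is gone beyond 500 bp. These shares are a description. With 1 to 100 bp between starts, 17 of 65 members (26.2%) had the summit between them. Over 100 and up to 200 bp it was 40 of 67 (59.7%), up to 300 bp 170 of 188 (90.4%), up to 400 bp 138 of 147 (93.9%) and up to 500 bp 69 of 71 (97.2%). The median distance to the midpoint was lowest at over 200 to 300 bp, 31.2 bp, against 63 bp at 1 to 100 bp and 79.5 bp at over 400 to 500 bp. Members at over 200 to 300 bp also had the highest median signal of the bins with over 20 members, 330.8, against 257.1 to 281.7 in the others. In the annotation, 420 member summits (68.4%) were intergenic, 123 lay in a 5′ UTR, 68 in an intron, 2 in coding sequence and 1 in another exon. Of other promoter summits 663 (46.8%) were intergenic and 433 (30.6%) lay in an intron. Upstream of the nearest start lay 503 of 614 member summits (81.9%, median 97 bp upstream) and 1097 of 1417 other promoter summits (77.4%, median 124 bp upstream). The stretch between head-to-head starts is upstream of both, so the rule also partly sets the intergenic, intron and upstream shares of members. Those shares too are a description.

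A larger share of genes with a head-to-head partner than of other genes had a peak at the start. For a gene this means a summit within 500 bp of one of its starts, and 2472 of all 13945 protein-coding genes (17.7%) had one in the IDR list. Of 5052 genes with an opposite-strand start within 1000 bp in head-to-head order 1414 (28.0%) had one, against 1058 of 8893 other genes (11.9%). In the top lists of replicates 1, 2 and 3, the shares were 31.0, 28.2 and 35.8% of paired genes, against 11.4, 12.01 and 13.8% of the others. Replicate 3 was highest in both sets, and paired genes were higher in each of 3 replicates. The difference averaged 19.3 ± 2.94 percentage points (SD, n = 3; exact paired permutation test over replicates, two-sided p = 0.25). With 3 replicates 0.25 is the smallest p this test can give, so no result of this test could pass 0.05. With the 2000 and 1000 highest peaks of each replicate the difference was 8.88 and 4.76 percentage points. A summit between partners counts for both genes, and the window of a paired gene also holds its partner's start. Counted as distinct peaks, there were 17.6 IDR peaks per 100 paired genes and 12.9 per 100 others. With a single 5′ end per gene, 22.2% of 4648 paired genes had a summit in the 500 bp upstream, against 8.16% of 9297 others, and 4.13% had one in the 500 bp downstream, against 2.69%. Of 2240 adjacent head-to-head gene pairs within 1000 bp, 520 (23.2%) had an IDR summit within 500 bp of both 5′ ends, and 831 (37.1%) had one in the pooled list of 30000 relaxed peaks.

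The share was highest at separations of over 200 to 400 bp, not in the closest pairs. Averaged over the top peaks of 3 replicates, 42.2% ± 6.64 of genes with a partner start over 200 to 300 bp away had a peak, and 41.9% ± 6.81 at over 300 to 400 bp (SD, n = 3). At 1 to 100 and over 100 to 200 bp it was 27.5% ± 3.00 and 26.7% ± 5.53, at over 600 to 800 bp 19.1% ± 1.32, at over 800 to 1000 bp 18.0% ± 1.47, and with no partner start within 5000 bp 11.6% ± 1.25 (SD, n = 3). Set side by side, genes at over 200 to 400 bp had 42.5, 35.3 and 48.4% in replicates 1, 2 and 3, against 23.8, 25.8 and 31.8% at 1 to 200 bp. The wider-spaced genes were higher in each replicate and the ranges did not overlap. The difference was 14.9 ± 4.89 percentage points (SD, n = 3; exact paired permutation test, two-sided p = 0.25, the smallest possible). In the IDR list, 657 of 1798 genes (36.5%) at over 200 to 400 bp and 361 of 1518 (23.8%) at 1 to 200 bp had a peak. The class at over 100 to 200 bp holds 78 histone genes of the repeated cluster, and without histone genes the replicate difference was 13.4 percentage points. With the 2000 highest peaks of each replicate it was 8.68 percentage points. This comparison was chosen after the values by separation were seen.

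**Figure D2:**
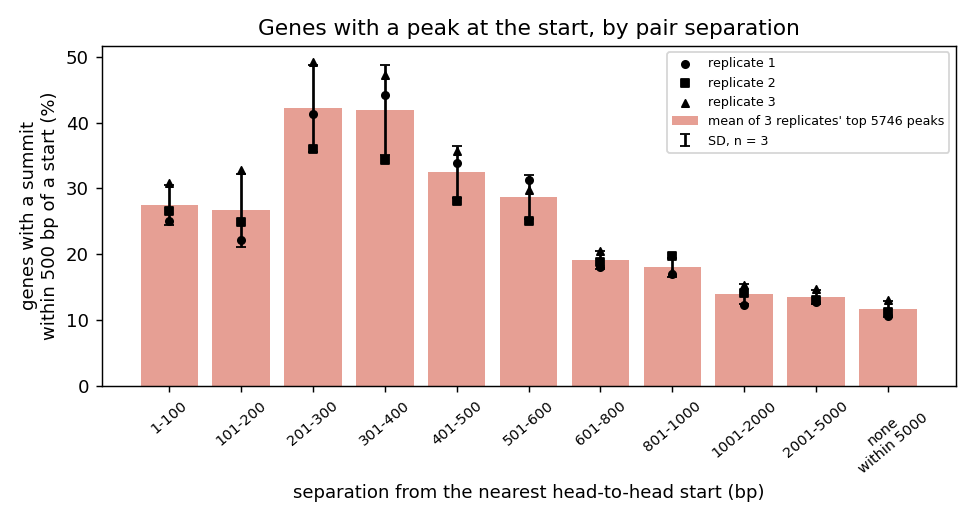
Percent of protein-coding genes with a summit within 500 bp of a start, by separation in bp from the nearest head-to-head start; bars are the mean over the top lists of 3 replicates, error bars the SD, symbols the replicates. The bars stand near 42% from over 200 to 400 bp, near 27% at 1 to 200 bp and at 11.6% where no partner lies within 5000 bp.

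Recovery in the replicates depended on the distance allowed between summits. A summit within 100 bp in the top lists of all 3 replicates was found for 375 of 614 members (61.1%), against 822 of 1417 other promoter peaks (58.0%) and 56.8% of all IDR peaks. With 50 bp allowed it was 283 members and with 200 bp 418. At 100 bp, of the other members 155 were found in 2 replicates, 71 in 1 and 13 in none. In the median, members ranked at the 92.8th, 90.8th and 92.4th percentile of signal in replicates 1, 2 and 3, against the 90.7th, 90.6th and 91.6th for other promoter peaks. Members were higher in 3 of 3 replicates by 1.02 ± 0.919 percentile points (SD, n = 3; exact paired permutation test, two-sided p = 0.25, the smallest possible). The difference was 2.44 points with starts within 250 bp and 0.524 without replicate 1. In replicate 2 the difference was 0.198 points, and among the 2873 strongest IDR peaks the mean difference was -0.0778. These ranks cover matched peaks only: 574, 581 and 585 members and 1346, 1372 and 1346 other promoter peaks in replicates 1, 2 and 3. No match was found for 6.51, 5.37 and 4.72% of members and 5.01, 3.18 and 5.01% of other promoter peaks. The small difference in replicate 2 leaves these out. The median IDR signal was 284.9 for members, 260.2 for other promoter peaks and 244.3 for peaks away from promoters. Among the 100 strongest IDR peaks 22 were members and 35 other promoter peaks, and among the 15 strongest 4 and 6. Of the 500 strongest 18% were members. Over the whole IDR list members were 10.7% of all peaks and 30.2% of promoter peaks. Over the full lists of 30000 peaks, 521 members (84.9%) had a summit within 100 bp in every replicate, against 1252 other promoter peaks (88.4%) and 3362 peaks elsewhere (90.5%). With 200 bp allowed the shares were 95.1%, 97.0% and 98.035%, a width chosen after seeing the data.

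**Figure D3:**
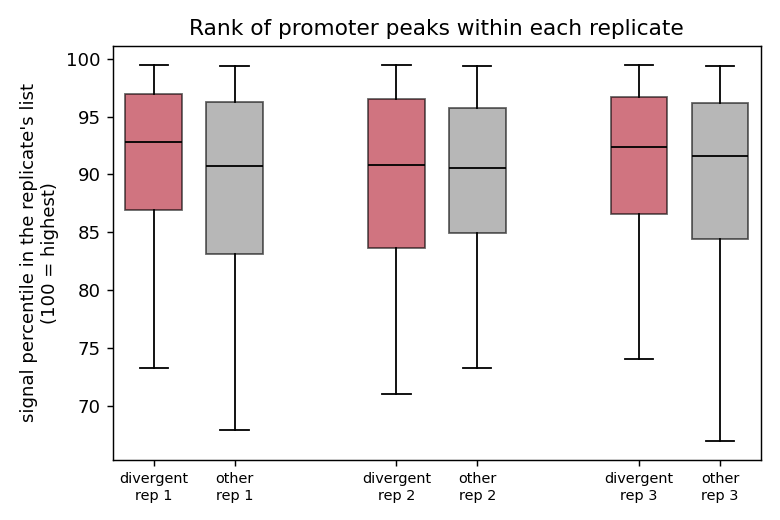
Signal percentile (100 is the highest) of the peak matched within 100 bp in the list of each of 3 replicates; boxes give the median and quartiles, whiskers the 5th and 95th percentiles, for divergent members (red, left) and other promoter peaks (grey, right). The medians lie between 90.6 and 92.8 and the boxes overlap in all 3 replicates.

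The share of promoter peaks that were divergent differed a little between replicates. Applied to the top list of each replicate, the rule gave 700, 598 and 809 divergent peaks in replicates 1, 2 and 3. They were 33.8, 29.2 and 33.1% of each list's promoter peaks, 32.0% ± 2.50 (SD, n = 3). Replicate 3 had the most promoter peaks of any kind, 42.6% of its top list, against 36.0 and 35.7% in replicates 1 and 2. Among the pooled peaks below the IDR threshold, 562 of 4288 promoter peaks (13.1%) were divergent.

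The strongest member lay between Art3, an arginine methyltransferase gene, and mRpS10, which encodes a mitochondrial ribosomal protein. It spanned 3R from 15229360 to 15229711, had an IDR signal of 2816 and stood at ranks 3, 4 and 5 in replicates 1, 2 and 3. The next was between Chromator (Chro), a chromatin protein of polytene interbands and the spindle, and Ssl1, a subunit of the transcription factor TFIIH. It spanned 3L from 22878697 to 22879097 (signal 2397, ranks 10, 12 and 6), and its summit lay 75 bp inside Chro. The CG5611/Mtl peak, 3R from 27635982 to 27636341, was beside the Rac-like GTPase gene Mtl (signal 2263, ranks 13, 18 and 14). MRpS23/CenG1A, a second pair with a mitochondrial ribosomal protein gene, had a signal of 2256 at ranks 29, 10 and 10. These 4 members kept within the 30 highest peaks of every replicate.

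Others of the 15 strongest were Fbw5/CG9147 (signal 2147), Tcs5/CHMP2B (1828), CG13390/CG17294 (1783), CG11309/CG7632 (1752) and eIF4EHP/CG18428 (1660). They were followed by Pdrg1/Pal1 (1582), CG1602/PIG-G (1540), Wdr37/koko (1534), Stt3A/bves (1471) and Pex11ab/CG8320 (1442). CHMP2B is a subunit of the membrane-cutting ESCRT-III complex, eIF4EHP a cap-binding repressor of translation, PIG-G a gene of GPI anchor synthesis and Stt3A a subunit of oligosaccharyltransferase. The lowest rank of any of these 15 in any replicate was 95, for Stt3A/bves in replicate 1, where it was 47 and 73 in replicates 2 and 3. In 12 of the 15 the summit lay between the starts. These ranks are a description, since the IDR list was itself made from these replicates.

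At the limit of the rule, the last members inside had their farther start at 499 bp (Spn27A/CG34310, signal 171.2), 496 bp (ko/ICA69, 255.5) and 494 bp (Nepl19/Nepl20, 321.3). The first peaks outside were at 503 bp (Mondo/crc, 806.8) and at 504 bp (CG30440/Ugt50B3, 284.0, and tefu/Hsc70-4, 185.7). Farther starts at over 400 to 500 bp were found in 40 peaks and at over 500 to 600 bp in 46. The members with most genes were at the trans-spliced mod(mdg4) locus, whose parts are annotated as separate genes (10 genes, signal 545.0), at PIG-M/NC2alpha (5 genes, 452.4) and at CG31650/CG33995, where 2 members held 4 genes each (184.7 and 177.6). The mod(mdg4) peak ranked 539 and 1117 in replicates 1 and 2 and had no summit within 100 bp in replicate 3.

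The lists of aminoacyl-tRNA synthetase and ribosomal protein genes had the highest shares of genes at a member. Over all protein-coding genes, 36.2% had a head-to-head partner within 1000 bp and 8.73% were at a member. Counts of the lists stand beside these figures with no test. Lists with more partnered genes could have more at members, so the number at a member was also divided by the number with a partner, which gave 24.1% over all genes. Cytoplasmic ribosomal protein genes had 28 at a member for 56 with a partner. The ratio was 43.5% for aminoacyl-tRNA synthetase genes and 37.3% for mitochondrial ribosomal protein genes. Other lists were also above the figure for all genes. They were insulator and promoter factor (43.75%), cell cycle (34.6%), Polycomb and trithorax group (30%) and RNA polymerase and general transcription factor genes (29.7%). Respiratory chain and ATP synthase (29.5%), vesicle trafficking (26.2%) and translation factor genes (25%) were above it too. Notch pathway and E(spl) complex genes had 2 at a member for 3 with a partner. DNA replication and repair (24.3%), Mediator (23.8%), proteasome (23.1%), nuclear pore (22.2%) and spliceosome genes (16.7%) were near or below the figure for all genes. Also below it were mitochondrial import (16.7%), heat shock and chaperonin (11.8%) and histone genes (2.25%). Of 93 cytoplasmic ribosomal protein genes 28 (30.1%) were at a member, and a further 33 had IDR peaks of other kinds. Thus 61 (65.6%) had an IDR summit of any kind at a start, against 17.7% of all protein-coding genes. Over all genes, 1217 of the 2472 with such a summit were at a member, so the high share of this list is not particular to divergent peaks. The strongest were at RpL7 (with Ripalpha, signal 893.7, ranks 328, 206 and 211), RpL14 (with Nelf-E, 882.5, ranks 515, 224 and 143) and RpS27 (with Nup37, 839.8, ranks 440, 219 and 304). All 3 ranked lowest in replicate 1. Of 75 mitochondrial ribosomal protein genes 22 (29.3%) were at a member and 4 more at other IDR peaks, led by mRpS10, mRpS23 and mRpL23 (with CG9004, signal 1333, ranks 93, 98 and 93). Of 33 aminoacyl-tRNA synthetase genes, which charge tRNAs, 10 (30.3%) were at a member, the strongest at GluProRS (with AP-1sigma, signal 529.2) and ThrRS (with Patsas, 498.0).

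Some genes of insulator and promoter factors were at members themselves. Of 24 insulator and promoter factor genes 7 (29.2%) were at a member: Chro, Cp190, Nelf-E, M1BP, Dref, pzg and su(Hw). BEAF-32 was not: its IDR peak (signal 348.2) was an other promoter peak, opposite the noncoding asRNA:CR42254. Cp190, an insulator cofactor, had a peak shared with CG4338 on 3R from 15275218 to 15275566 (signal 1286, ranks 81, 125 and 88). M1BP had one with CG8202 (747.4, ranks 267, 611 and 340) and Dref, which encodes DREF, one with RpL13 (556.6, ranks 901, 539 and 950). The weakest were at pzg (263.4) and su(Hw) (225.1, ranks 1989, 8094 and 5220), each in the top peaks of 2 replicates. Of 20 Polycomb and trithorax group genes 3 were at a member, with E(z), the histone methyltransferase, strongest (with Cnep1r2, 1103, ranks 127, 144 and 196), and 8 were at other IDR peaks.

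Other lists of general functions ranged from 20.0% of cell cycle genes to 1.69% of histone genes at a member. RNA polymerase and general transcription factor genes had 11 of 56 at a member, led by Taf5 (with Pex6, signal 917.6), and Mediator genes had 5 of 29, led by MED30 (with Rev1, 485.4). DNA replication and repair genes had 9 of 51, the strongest at PolD2 (with CG13933, 1088), which ranked 128 and 197 in replicates 2 and 3 and had no summit within 100 bp in replicate 1. Cell cycle genes had 9 of 45, among them the mitotic kinase genes Cdk1 (with mRpS7, 395.7) and aurB (with Stam, 296.9), led by Cdc16 (with orb, 686.8). Vesicle trafficking genes had 17 of 103 (Vps33B with Fur1, 750.5), respiratory chain and ATP synthase genes 13 of 88 (Cyt-c-d with CG31808, 1106, an overlapping pair), and translation factor genes 7 of 54. Proteasome subunit genes had 6 of 48 (Rpn3 with l(2)37Bb, 336.8), nuclear pore genes 4 of 23, spliceosome genes 5 of 35 (Prp18 with CG6013, 375.8), heat shock and chaperonin genes 2 of 35 (DnaJ-H with Sirt1, 490.7) and mitochondrial import genes 1 of 18 (Tom7, 279.4). Of 118 histone genes 89 had a partner and 2 were at a member, His2Av (with ball, 333.3) and His4r (with put, 231.9).

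Genes of patterning and of neurons were at few members. None of 36 segmentation, Hox and Pax genes and none of 35 neuronal identity and proneural genes was at a member. Other IDR peaks within 500 bp of a start were found for 14 (38.9%) and 15 (42.9%) of them. Over all protein-coding genes, 17.7% had an IDR summit of any kind there. No gene of either list had a head-to-head partner within 1000 bp, so none could be at a head-to-head member. This holds for gsb-n itself and its neighbour gooseberry (gsb), which had IDR peaks at their starts but no divergent partner. Of 23 Notch pathway and E(spl) complex genes 2 were at a member and 9 at other IDR peaks, so 11 (47.8%) had an IDR summit at a start. E(spl)mdelta-HLH, a Notch target gene, shared a peak with CG43116 (595.2, ranks 394, 783 and 812). The ubiquitin ligase gene neur shared 2 with hyx (206.1 and 159.0, each in the top list of 1 replicate). No synaptic and channel gene of 41 and no odorant or gustatory receptor gene of 120 was at any IDR promoter peak, though 7 and 16 had a partner. Genes known only by a CG number were 386 of 1217 (31.7%) at members and 43.7% of all protein-coding genes.

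**Figure D4:**
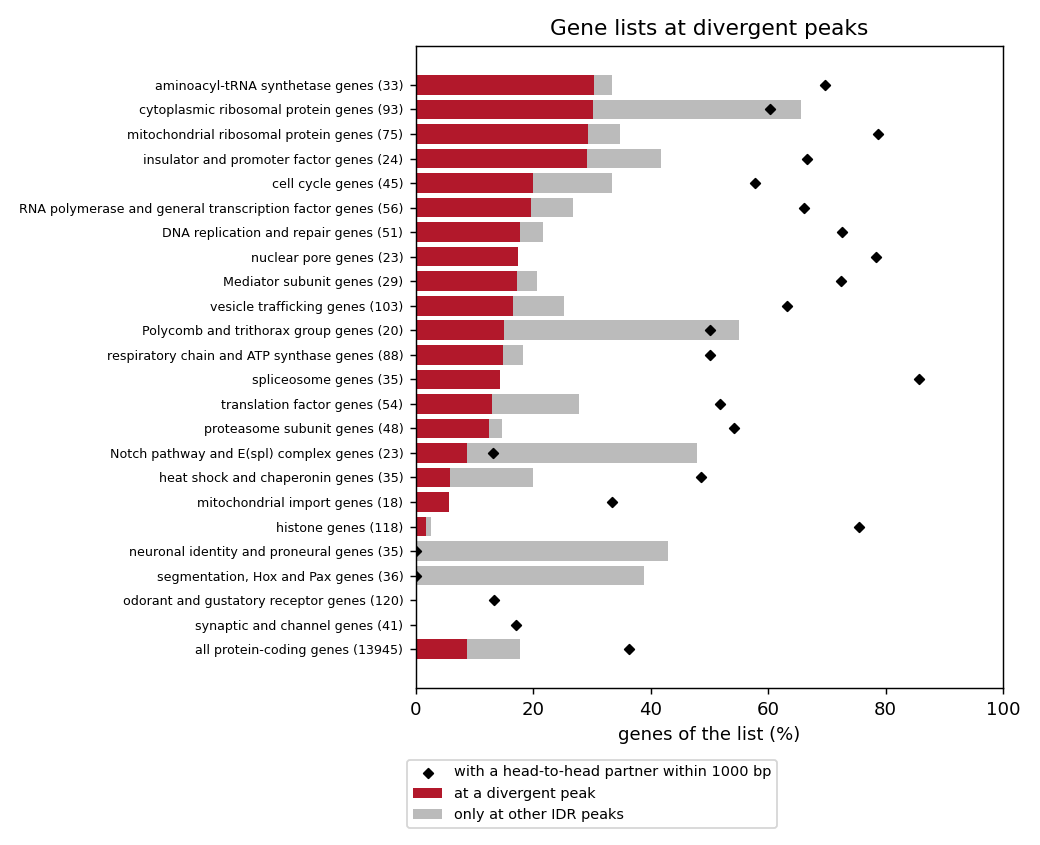
Percent of each list's genes (number in brackets) at a divergent member (red), only at other IDR promoter peaks (grey) and with a head-to-head partner within 1000 bp (diamonds). Aminoacyl-tRNA synthetase and both ribosomal protein lists stand near 30% in red, the bar of all protein-coding genes at 8.73%, and the patterning and neuronal lists at 0.

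Base composition and motifs at the summits were set beside those of other promoter peaks. Windows reaching 100 bp to either side of member summits had a mean GC content of 33.1%, against 37.7% at other promoter summits and 38.6% in windows of the same length upstream of all gene 5′ ends. The E-box core CAGCTG, the DREF site TATCGATA and 13 other motifs were searched on both strands. The DREF site was in 65 of 614 member windows (10.6%, 95% Wilson interval 8.39 to 13.3), against 73 of 1417 other promoter windows (5.15%, 4.12 to 6.43) and 7.39% of all promoter windows. In the replicates' own top peaks it was in 8.29, 10.4 and 11.7% of divergent windows, against 4.45, 3.99 and 6.90% of others, 5.02 ± 1.28 percentage points apart (SD, n = 3). The shorter BEAF-32 core CGATA, which every TATCGATA contains, was in 44.0% against 31.8% (38.4% of all promoters). Ohler motif 7, CANCNCTA, was in 18.1% against 11.6% (9.65% of all promoters), and the M1BP element GGTCACACT in 5.70% against 3.81% (2.80%). Any of the DREF site, M1BP element, CAGCTG or Ohler motif 7 was in 233 members (37.9%) and 368 other promoter peaks (26.0%). Matches to the DREF site and the M1BP element lay at a median of 53.5 and 59 bp from the summit. Within 50 bp of the summit the replicate differences were 1.88 percentage points for the DREF site, 0.752 for Ohler motif 7, -0.0955 for the M1BP element and -0.864 for CAGCTG.

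Of the sites that Pax proteins are known to bind, the homeodomain core TAATTA was in 156 members (25.4%, 95% Wilson interval 22.1 to 29.0), against 216 other promoter peaks (15.2%, 13.5 to 17.2) and 15.5% of all promoters. By replicate it was 26.9, 23.1 and 23.5% of divergent windows, against 18.5, 14.4 and 13.9% of others, higher in each of 3 replicates by 8.88 ± 0.611 percentage points (SD, n = 3). The paired-domain core GTCACG was in 5.86% against 5.01% (3.56% of all promoters), and the replicate difference was 0.635 ± 0.412 points (SD, n = 3). TATAAA was in 43.5% of members, against 33.8% of other promoter peaks and 37.0% of all promoters. TAATTA and TATAAA hold no G or C, and the part of the lower GC content in their shares was not tested.

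Repeats of GAGA went the other way. GAGAGAG, bound by the GAGA factor, was in 8 members (1.30%), against 103 other promoter peaks (7.27%) and 4.73% of all promoters. In the replicates it was in 0.857, 1.67 and 1.24% of divergent windows, against 6.72, 9.77 and 7.69% of others, and the ranges did not overlap. The difference was -6.81 ± 1.16 percentage points (SD, n = 3), and -2.33 within 50 bp of the summit. The initiator letters TCAGTT were in 10.1% against 14.9% (15.2% of all promoters). CAGCTG (11.6% against 9.81%), CCAAT (29.3% against 32.0%), CACGTG (1.79% against 1.98%), the ETS site CCGGAAG (0.977% against 0.988%), the Zelda site CAGGTAG (0.489% against 0.706%) and the Nrf1-like GCGCATGC (0.489% against 0.423%) had overlapping Wilson intervals, as did the M1BP element and the paired-domain core. For the first 6 of these, the shares of all promoter windows were 11.6, 35.1, 2.23, 0.696, 1.15 and 0.760%. Over the 15 motifs the exact paired permutation test gave p = 0.25, the smallest possible, for 12, and the adjusted p of these was 0.3125.

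**Figure D5:**
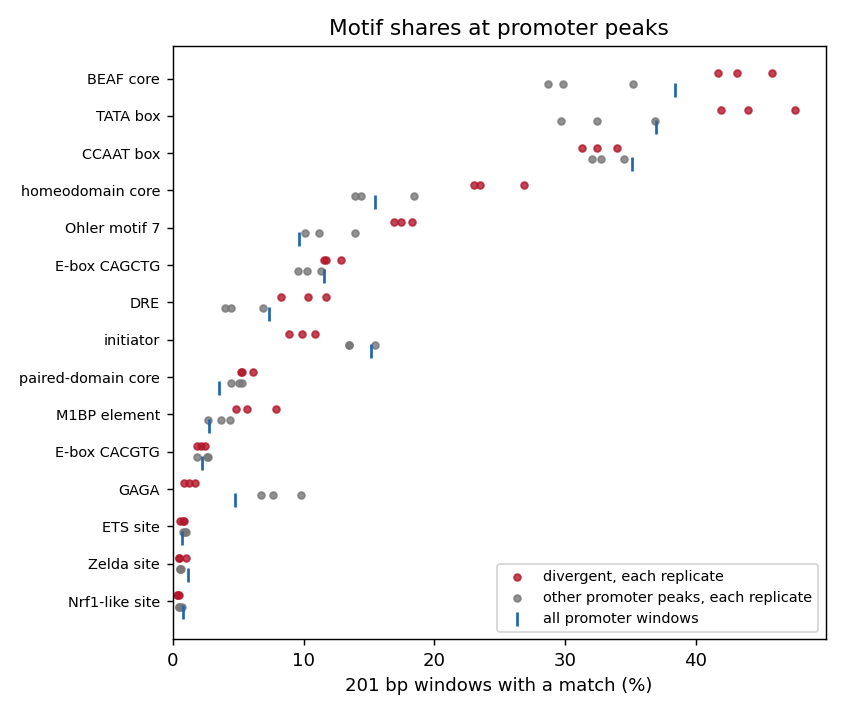
Percent of summit windows (100 bp to either side) with a match on either strand, for 15 motifs, in the top list of each of 3 replicates: divergent peaks (red, upper row of each motif), other promoter peaks (grey, lower row) and windows upstream of all gene 5′ ends (blue bars). For the homeodomain core the red points lie at 23.1 to 26.9 and the grey at 13.9 to 18.5, and for GAGA the red lie at 0.857 to 1.67 and the grey at 6.72 to 9.77.

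Motifs were also compared between pairs with and without a peak, with no test. At the midpoints of adjacent head-to-head pairs, the DREF site was in 9.23% of 520 pairs with an IDR summit and 8.60% of 1720 pairs without one, and the M1BP element in 3.65% and 4.65%. TAATTA was in 28.1% of pairs with a summit and 20.9% of those without, GTCACG in 5.77% and 2.91%, and Ohler motif 7 in 16.2% and 11.0%. CGATA was in 42.1% of pairs with a summit and 41.0% of those without, and GAGAGAG in 1.54% and 2.62%, so both sets of pairs were nearer to members than to other promoter peaks in these shares. TCAGTT was in 52 pairs with a summit and 263 without (15.3% of those without). GC content was 31.3% and 34.1%, and its part in these shares was not tested. In 4 groups of 154, 154, 153 and 153 members, from the strongest to the weakest, the DREF site was in 7.14, 12.3, 13.1 and 9.80%, and the M1BP element in 3.90, 2.60, 8.50 and 7.84%, with no steady order in either. Summits of the strongest 154 lay 36.8 bp from the midpoint of their starts (median), against 69.5 bp for the weakest 153. The strongest also had closer starts, 266 against 298 bp (median). From the strongest group to the weakest, 87.0, 77.9, 79.7 and 81.0% of summits lay between the starts, with no steady order. The part of separation in the distance to the midpoint was not tested.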

How the data were processed

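Deposited were 5 peak lists in narrowPeak layout on dm6. Per the deposited notes, each replicate list was made from that replicate's alignments and a shared control, the pooled list from all 3 replicates and the control, and the IDR list from these 4 lists. Which aligner, peak caller and threshold the authors used was not given in the sources used here. Signal is the value deposited by the authors in lists without a header, and what it measures was not given in the sources used here. It has a scale of its own in each list and served here for ranks and descriptions inside single lists. Summits are the start plus the deposited offset column. Each replicate and the pooled list hold 30000 relaxed peaks, so their length says nothing of enrichment, and relaxed peaks include weak ones. Read depth is unknown.

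Arms 2L, 2R, 3L, 3R, 4 and X were used, with all 19607 transcript starts of 13945 protein-coding genes (Ensembl) and the RefSeq genome, the same assembly. Replicate peaks were matched to IDR peaks by the nearest summit within 100 bp. The tested comparisons were of signal rank, of gene shares by pairing and by separation, and of motif shares. Each used an exact paired permutation (sign flip) over 3 replicates, two-sided. The p-values of motifs had Benjamini-Hochberg adjustment over 15 motifs. Wilson intervals are at 95%. The rule, matching, motif search and test were checked on simulated data. Members, the 23 gene lists (matched by symbol patterns) and motifs were chosen with earlier results of these data known. Named genes are those of the 15 strongest members, of the strongest member of each list, of the members with most genes, of the narrowest and widest pairs, of peaks at the 500 bp limit, and gsb and gsb-n; other genes named from the lists were chosen after their values were seen. Not every gene under the rule is named, and 1 of the strongest pairs is not reported here. Python 3.11.15, numpy 2.4.6, pandas 2.3.3 and scipy 1.17.1 were used.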

Additional observations from a re-analysis of the deposited data

How the results depend on the processing

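Counts of members moved with the distance and the threshold: 406 with summits within 250 bp of both starts and 369 among the 2873 strongest IDR peaks, against 614, and 545 to 556 where the full lists of the replicates left after leaving out 1 both held a match. The share of divergent peaks among promoter peaks was 20.6% over all 30000 peaks, 26.7% within 250 bp and 36.0% with a single 5′ end per gene, against 32.0%, and 31.1 to 33.4% without 1 replicate. The rank difference turned to -0.0778 percentile points among the 2873 strongest IDR peaks, and was 0.524 to 1.43 without 1 replicate. Members found in all 3 replicates numbered 584 over the full lists with 200 bp allowed (chosen after seeing the data), and 283 with 50 bp allowed in the top lists, against 375, and 409 to 436 without 1 replicate. The paired minus unpaired share of genes stayed positive under all 11 alternatives (17.9 to 20.9 without 1 replicate), but was 4.76 percentage points with the top 1000 peaks. The difference by separation stayed positive under its 7 alternatives, all chosen after seeing the data (13 to 17.7 without 1 replicate). Motif differences changed sign for the M1BP element (-0.0955) and CAGCTG (-0.864) in windows of 50 bp to either side of the summit, for the Zelda site in the same windows (-0.0349), in the top 2000 peaks (-0.0384) and without 1 replicate (-0.0864 to 0.217), and for CCAAT without 1 replicate (-1.77 to 0.213). The cause was not tested. In the main setting the replicate differences were 2.59 percentage points for the M1BP element, 1.67 for CAGCTG, 0.105 for the Zelda site and -0.557 for CCAAT. The other 11 motifs kept the sign of their replicate difference under 7 alternatives each. For 2 rare motifs the IDR list had the other sign: -0.217 for the Zelda site, and 0.0652 against -0.132 in the replicates for the Nrf1-like site. No replicate block between groups was possible because there is 1 group. No control sample or read counts were analysed here, and the sign-flip test over 3 replicates cannot pass 0.05.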

Other observations

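Some promoter peaks outside the rule had a noncoding partner. Of the 1417 other promoter peaks, 55 (3.88%) had the start of a noncoding gene on the opposite strand in head-to-head order within 500 bp of the summit. The partner was annotated as an ncRNA gene, mostly long noncoding or antisense RNA, for 48 of these peaks, a tRNA gene for 5 and a snoRNA gene for 2, and some genes were the partner of 2 peaks. The strongest was between brwl and lncRNA:CR44149 (signal 1422, rank 75 in the IDR list). E(spl)m3-HLH, a Notch target gene, had such a peak with lncRNA:CR43644 (909.8, rank 223). These genes were named after their values were seen.

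Members made up 32.0% to 33.5% of IDR promoter peaks on 2L, 3L and 3R and 29.1% on 2R. On X they were 66 of 307 (21.5%), and on the small chromosome 4 they were 2 of 9. No test was run on these shares. In all, 28 gene pairs held 2 members each and 558 held 1.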
